A study of Homo sapiens with 4 samples.

Results

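The regions described here were sites of H3K27Ac, acetylation of lysine 27 of histone H3, that were acetylated in LNCaP cells with and without androgen but carried fewer tags after androgen. They were selected on measured values. A vehicle peak and a dihydrotestosterone (DHT) peak formed a one-to-one pair when they overlapped by 1 bp or more and neither touched another peak of the other list. A pair was counted as lowered when the vehicle peak was at least 30 tags high and the DHT height was at most 0.67 of the vehicle height. Of 47574 one-to-one pairs in all, 20199 had a vehicle height of 30 tags or more, and 1627 of these were lowered, which is 8.05%. Because height chose the pairs, their heights are a description and no test was made on them.

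LNCaP cells are an established human line from a prostate cancer metastasis that responds to androgen and has luminal epithelial character. For both H3K27Ac libraries the cells were at passage 20, in RPMI medium whose serum had been stripped of steroids with charcoal, and received either vehicle, which was ethanol by the study's methods, or 10 nM DHT for 4 h. A further library of the transcription factor TCF7L2 came from LNCaP cells at passage 15 in serum that was not stripped, so its cells had steroid that the vehicle cells lacked. Each condition was 1 library, so none of the differences below has a replicate check, and intervals, all at the 95% level, cover counting error only. Read totals are not given in the sources used here, and heights in tags are those the peak caller wrote, with no scaling stated. A lower height cannot tell fewer cells with the mark from less of it per cell. In vehicle cells, 10 of 11 luminal markers had a peak of 30 tags or more at a promoter, with KLK3 the exception, whereas none of 5 basal markers had any promoter peak, and 1 of 6 stromal, 1 of 5 leukocyte and 1 of 3 endothelial markers had one of that height.

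H3K27Ac marks active promoters and enhancers and is placed largely by the acetyltransferases p300 and CBP. When androgen binds the androgen receptor, the receptor moves onto chromatin at androgen response elements, often beside the pioneer factor FOXA1, with GATA2 and HOXB13 as further partners in prostate cells. Acetylation then rises at many receptor-bound enhancers, while genes that the hormone represses are less well understood, with loss of coactivator at other enhancers among the mechanisms described.

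The first sequences show what the DNA of lowered regions looked like. They are 200-base stretches of the hg19 plus strand, each inside the middle 1000 bp of the overlap of the vehicle and DHT peaks, placed where most GATA, FOXA and HOXB13 sites fell. Among the uniquely mapping regions away from promoters that were considered for display, the MBL2 region had the largest loss of tags at a ratio of 0.5 or less and the PLD1 region the most sites. The CNTN5 region had the lowest ratio in the largest group of neighboring lowered peaks. All 3 were picked after their values were known. Capitals mark the GATA site AGATAA and the FOXA site TGTTTAC on either strand. The stretch nearest MBL2 held 2 GATA sites, that nearest PLD1 held 3 GATA sites and 1 FOXA site, and that nearest CNTN5 held none.
MBL2 (chr10:54902615-54902814): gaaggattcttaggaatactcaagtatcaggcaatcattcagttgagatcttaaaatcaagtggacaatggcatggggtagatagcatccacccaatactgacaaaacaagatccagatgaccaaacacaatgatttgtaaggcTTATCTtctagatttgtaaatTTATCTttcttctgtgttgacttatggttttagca
PLD1 (chr3:171459314-171459513): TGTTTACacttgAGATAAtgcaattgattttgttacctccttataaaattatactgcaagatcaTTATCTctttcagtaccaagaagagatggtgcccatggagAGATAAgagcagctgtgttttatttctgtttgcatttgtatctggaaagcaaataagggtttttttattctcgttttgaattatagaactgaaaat
CNTN5 (chr11:98095355-98095554): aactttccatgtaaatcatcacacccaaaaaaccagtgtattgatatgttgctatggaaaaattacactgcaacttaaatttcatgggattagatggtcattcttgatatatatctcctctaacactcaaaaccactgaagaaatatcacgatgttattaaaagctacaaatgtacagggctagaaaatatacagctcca

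The second set shows androgen response elements, because so few lowered regions had one. The search used the letters GNACA and TGTNC with any 3 bases between them, on both strands. Only 7 of 1627 lowered pairs had a match in the middle 1000 bp, and 6 of the matches are shown with 6 bases on either side and the match in capitals. One of them lay in the peak nearest STEAP2, a gene commonly counted as androgen-induced.
NUCB2 (chr11:17300079-17300103): cccaagGTACATATTGTTCatatca
CEP126 (chr11:101878408-101878432): aagacaGAACAGTATGTTCaaggtg
SOCS6 (chr18:67919311-67919335): tttgggGCACAATATGTTCatgacc
CDH6 (chr5:29944939-29944963): ccaccaGTACATCATGTGCattgaa
TNFRSF21 (chr6:47306763-47306787): cttataGGACACTTTGTCCcagtgc
STEAP2 (chr7:89823329-89823353): tctcaaGGACACCCTGTCCaattta

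The heights of the lowered pairs spanned a narrow range. The vehicle peaks were 30 to 145 tags high with a median of 44, and the DHT peaks were 10 to 95 tags high with a median of 25. The median ratio was 0.60, and the lowest was 0.28. A ratio of 0.5 or less was reached by 255 pairs and a ratio of 0.4 or less by 46. Counting error alone was wide at these heights, and the upper limit of the exact interval of the ratio stayed below 1 for 994 of the 1627 pairs. The rule chose the pairs on this same ratio, so such intervals, here and below, describe counting error and test nothing. Nor is 1 the middle of the population: the median ratio of all pairs of 30 vehicle tags or more was 1.03. The called stretch narrowed with height: the median width was 2520 bp with vehicle and 1980 bp with DHT. In 1564 pairs (96.1%) the DHT peak lay wholly inside the vehicle peak. The study reports that peak width rises with height, so this goes with the choice on height and is no separate result. The raised pairs defined below showed the mirror, with 1860 bp with vehicle and 2610 bp with DHT. Few tall vehicle peaks lacked a DHT peak altogether. Of 21671 vehicle peaks of 30 tags or more, only 3 met no DHT peak. That count cannot be set against the lowered count, because the limits are unlike. Listed heights went down to 9 tags, at vehicle peaks of raised pairs, so loss took a far deeper fall than a ratio of 0.67. The same rule turned around, with a DHT height of at least 30 tags and a vehicle height of at most 0.67 of it, gave 4192 raised pairs of 22276, which is 18.8%. Pairs with a ratio between 0.8 and the reciprocal of 0.8, of which there were 13024, are called steady below.

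**Figure D1:**
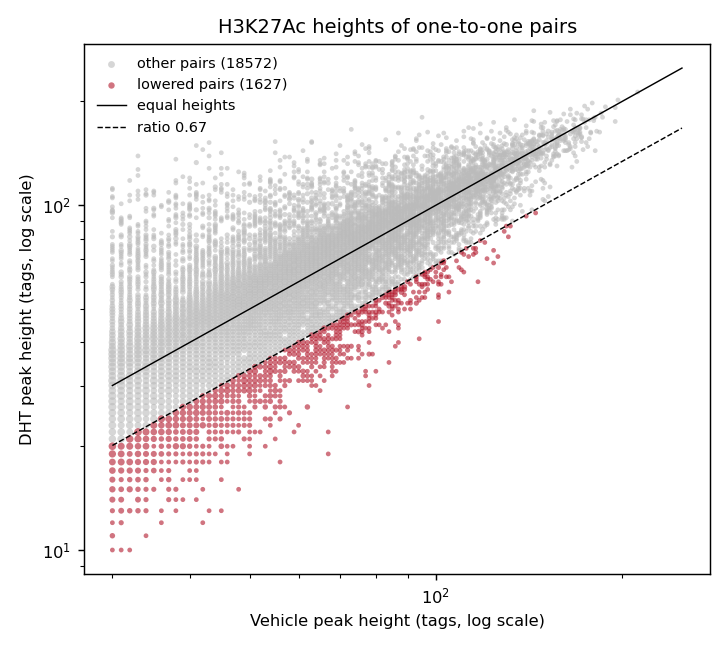
Height of each one-to-one H3K27Ac pair with vehicle (horizontal axis) and with DHT (vertical axis), in tags on log scales, for pairs of 30 vehicle tags or more. Larger points hold more pairs; the 1627 lowered pairs (red) lie on or below the dashed line at 0.67, with vehicle heights from 30 to 145 tags.

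The deepest relative losses were at peaks of modest height. The peak nearest IL17A, which encodes an inflammatory cytokine, went from 42 to 12 tags. A peak in CCDC14 19.3 kb from the start of MYLK, the myosin light chain kinase gene, went from 45 to 13 tags. The intervals of the IL17A and MYLK ratios ended at 0.553 and 0.545. Near CYP7B1, whose enzyme hydroxylates oxysterols and metabolites of androgens, a peak inside the gene went from 67 to 22 tags. At STAC, a peak 1.42 kb from the gene's start went from 48 to 15 tags. A further 7 of the 12 lowest ratios, nearest NAV3, LRIG3, TAFA2, KBTBD2, CIBAR1, TAS2R13 and IGFBP7, had 30 to 56 vehicle tags and 10 to 18 DHT tags.

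The tallest lowered peaks stayed well acetylated. The tallest of all, on chromosome 4 with IGFBP7 as its nearest start 1576 kb away, went from 145 to 95 tags. A peak in C5orf15 went from 140 to 93 tags, and one near IPO8, which encodes an importin, from 132 to 87. These ratios sat close to the limit of the rule, between 0.655 and 0.664. Further below it was a peak 74.6 kb from ABCA12, the gene of a lipid transporter of the epidermis, with 124 vehicle tags and 68 DHT tags. A peak inside ADGRG6, an adhesion G protein-coupled receptor gene, went from 121 to 70 tags, and a peak 227 kb from TRPS1, which encodes a GATA-type repressor, from 124 to 74. A further 2 of the 12 tallest, nearest TPTE and PPIAL4G, had no 1000-base piece that mapped uniquely, so their tags cannot be placed with certainty. In tags rather than in ratio, the largest loss was at a peak 393 kb from MBL2, from 117 to 60, with ABCA12 next. A second MBL2 peak, from 101 to 46, and a peak inside CSMD1, from 126 to 71, came after it with equal losses. Also among the 12 largest losses were a peak inside LUZP2, from 94 to 41 tags, and a peak 691 kb from CDH18, a cadherin gene, from 84 to 35. The rest of the 12 tallest, nearest SLC12A2, SUV39H2 and EGLN3, had 118 to 129 vehicle tags and 78 to 84 DHT tags.

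Pairs on either side of the limit were alike in counts. Just inside it were peaks nearest NRP1 and FAM174A, each with 103 vehicle and 69 DHT tags, and one in ROR1 with 112 and 75. Just outside were peaks in GPATCH2 with 94 and 63 tags, in RELN with 91 and 61, and near PPP2R2D with 82 and 55.

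Lowered pairs were nearly absent from promoters, which the rule did not use. A promoter was taken as 1000 bp before to 100 bp after the start of a protein-coding transcript. Only 42 lowered pairs (2.58%, 1.92 to 3.47) touched one, against 38.4% of steady and 8.09% of raised pairs. Seen from the other side, 0.693% of the 6057 promoter pairs of 30 vehicle tags or more were lowered, and 1585 of the 14142 pairs away from promoters were, which is 11.2%. The median ratio of all those promoter pairs was 1.11, against 0.955 away from promoters. The whole promoter population thus sat further from the fixed limit, and not the lowered pairs alone. Of the lowered pairs, 47.0% lay in gene bodies away from promoters and 50.5% between genes, while 24.4% of steady and 37.1% of raised pairs were intergenic.

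The 42 lowered promoters belonged to genes of varied function. The promoter peak of POU1F1, a pituitary transcription factor gene, went from 32 to 13 tags. That of KRT2, an epidermal keratin gene, had 48 vehicle and 24 DHT tags. The tallest was at INSIG2, whose product holds the sterol sensor SCAP in the endoplasmic reticulum, with 116 and 75 tags. Among the others were C1QTNF6 with 101 and 59 tags, WNT5A, a noncanonical Wnt ligand gene, with 44 and 26, and CYP7A1, the rate-limiting enzyme of bile acid synthesis, with 46 and 29. GLI3, a Hedgehog pathway transcription factor gene, had 47 and 30 tags. The interval of the ratio ended below 1 for POU1F1, INSIG2, C1QTNF6, KRT2 and WNT5A, at 0.796, 0.872, 0.813, 0.8325 and 0.981, and reached 1.03 for both CYP7A1 and GLI3.

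Distance from genes set the lowered pairs apart also among pairs away from promoters. Their median distance to the nearest protein-coding start was 64.7 kb, against 27.9 kb for steady and 35.1 kb for raised pairs. More than 100 kb separated 40.8% of them (38.4 to 43.2) from any such start, against 21.6% of steady and 24.7% of raised pairs. The intervals of these shares did not overlap.

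**Figure D2:**
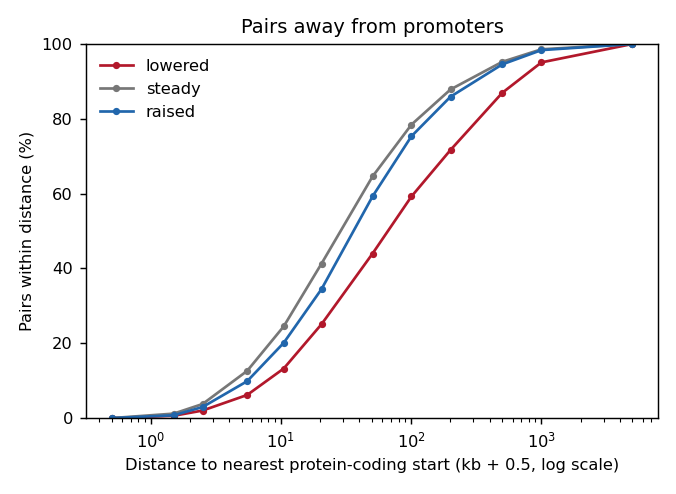
Share of pairs away from promoters (vertical axis, %) within a given distance of the nearest protein-coding start (horizontal axis, kb plus 0.5 on a log scale) for lowered, steady and raised pairs. The lowered curve lies to the right of the other two, with a median of 64.7 kb against 27.9 kb and 35.1 kb.

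The lowered pairs were poor in G and C. The median GC content of their vehicle peaks was 37.5%, against 45.3% in steady and 39.9% in raised pairs, and away from promoters it was 37.5%, 41.5% and 39.5%. The observed over expected ratio of CpG had a median of 0.183 in lowered, 0.292 in steady and 0.205 in raised pairs. The share of pairs lowered fell with GC content: away from promoters it was 22.4% of 1971 pairs under 35% GC, 10.3% between 39 and 41% and 2.05% of 1460 pairs of 50% or more. The median ratio of all pairs away from promoters rose over the same classes from 0.847 to 1.03, so the whole population moved with GC content and not the lowered pairs alone. At like GC content promoters were still lowered less often, for example 3.25% of 154 promoter pairs between 39 and 41% GC, and in each of the 8 GC classes the promoter interval lay below that of the other pairs. Between 39 and 41% GC the median ratio of all promoter pairs was also higher, 1.06 against 0.957 for the other pairs. Base composition can move with the preparation of a library as well as with its cells, and with 1 library per condition the part of either cannot be told apart. When each ratio was divided by the median of its GC decile and multiplied by the median of all pairs, 998 pairs met the limit, 940 of them among the 1627, with 4.11% at promoters and a median GC content of 39.6%.

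**Figure D3:**
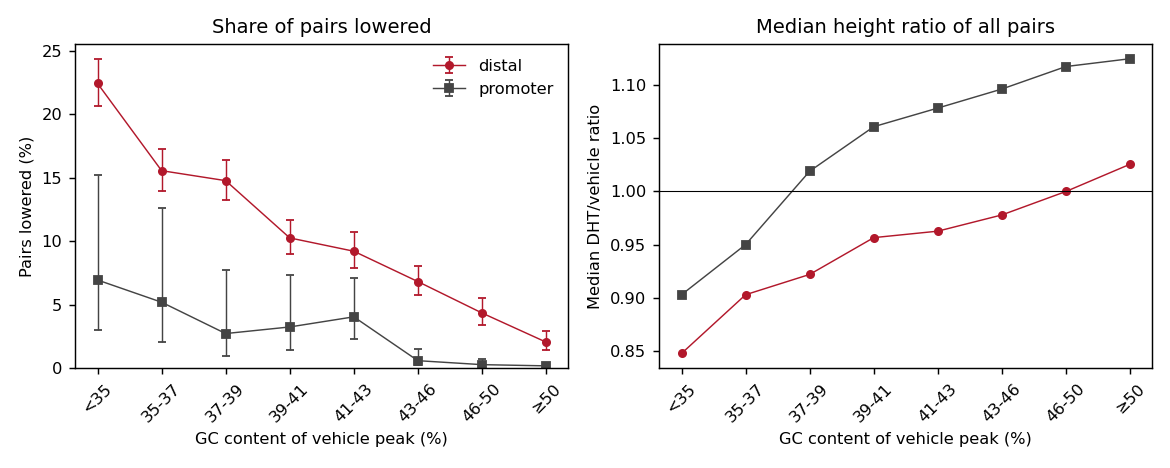
Share of pairs lowered (left, %, bars are Wilson intervals) and median DHT over vehicle height ratio (right) by GC content of the vehicle peak, for pairs at promoters and away from them (distal), vehicle height of 30 tags or more. The distal share falls from 22.4% under 35% GC to 2.05% at 50% or more while the median ratio rises from 0.847 to 1.03.

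GATA sites were denser in lowered regions than in the others. The sequence AGATAA occurred 1.07 times per kb of lowered vehicle peaks away from promoters (1.04 to 1.11), 0.790 times per kb of steady and 0.897 times per kb of raised pairs. At least 1 site was present in 91.3% of all lowered vehicle peaks and in 83.2% of all 20199 pairs. The letters are AT-rich, and part of the gap went with base composition. In peaks under 37% GC the densities were 1.255, 1.13 and 1.16 sites per kb in lowered, steady and raised pairs, and in peaks of 41% GC or more they were 0.751, 0.560 and 0.655. The interval of the lowered pairs lay above that of the steady pairs in each of the 3 GC classes and above that of the raised pairs only at 41% GC or more. These classes are wide and do not match base composition. Within the class of 41% GC or more, the share lowered fell from 9.21% at 41 to 43% to 2.05% at 50% or more. No reordered control was counted for the GATA site, so how much of its gap went with base composition was not tested. In the middle 1000 bp the order was the same, with 1.26, 0.817 and 0.920 sites per kb.

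Over whole vehicle peaks FOXA sites, TGTTTAC, were not denser in lowered than in raised regions. They occurred 0.275 times per kb of lowered, 0.227 of steady and 0.296 of raised pairs away from promoters. Under 37% GC the lowered value of 0.295 had an interval that covered the steady value of 0.288. The median widths searched were unlike, at 2520, 2790 and 1830 bp. FOXA density depended on the stretch: over all lowered pairs it was 0.273 per kb of whole peak and 0.403 in the middle 1000 bp. A reordered control with the same letters, TTGTTCA, occurred 0.228, 0.200 and 0.232 times per kb. The HOXB13 site CCAATAAA occurred 0.0956 times per kb of lowered, 0.0660 of steady and 0.0698 of raised pairs. Its intervals for lowered and steady pairs overlapped in the GC classes below 41% and were separate above it. The same wide classes were used, and no reordered control was counted for this site either. AP-1 sites, TGANTCA, had densities of 0.365, 0.366 and 0.375 per kb, with intervals that overlapped. The E-box CACGTG and the SP/KLF site GGGCGG, both rich in G and C, were scarcer in lowered pairs away from promoters, with 0.0693 and 0.0819 sites per kb, than in steady pairs, with 0.108 and 0.255.

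Androgen response elements were no denser in lowered regions than a reordering of their letters. The full element occurred 0.00833 times per kb of lowered (0.00586 to 0.0115), 0.0131 of steady and 0.0399 of raised pairs away from promoters. The reordering occurred 0.0110, 0.0108 and 0.00974 times per kb. The intervals of element and reordering were separate for raised pairs and overlapped for lowered and steady pairs. At the middle of the regions the contrast was wider, with a match in 6 of 1585 lowered pairs, 101 of 8027 steady pairs and 223 of 3853 raised pairs, or 0.379%, 1.26% and 5.79% of pairs. One arm of the element, AGAACA, had 0.864, 0.870 and 1.08 occurrences per kb. A match is a string of letters and not a site shown to be bound.

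**Figure D4:**
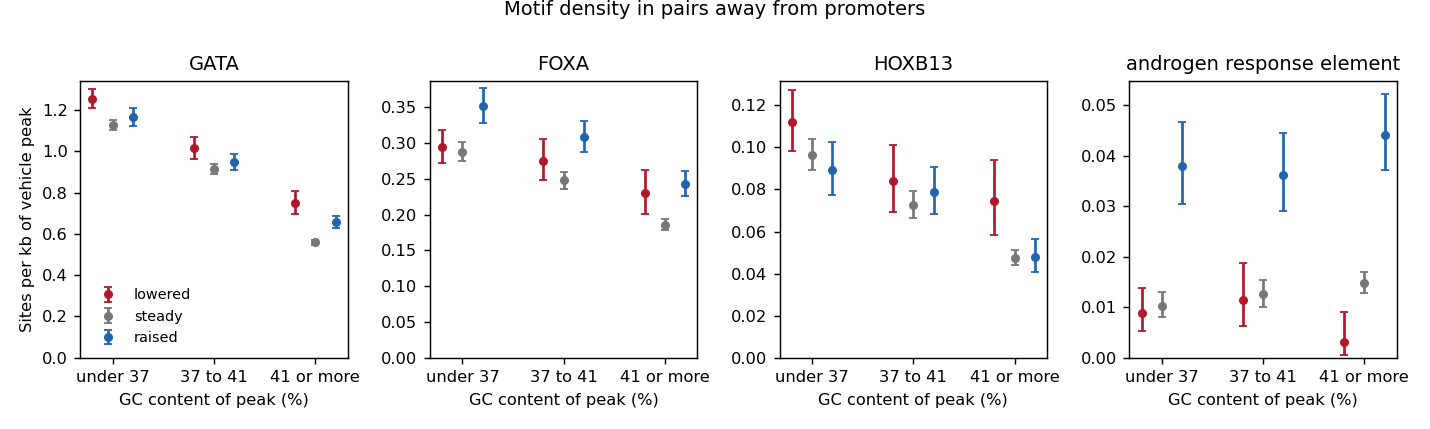
Sites per kb of vehicle peak (vertical axes, both strands) for 4 motifs in lowered, steady and raised pairs away from promoters, split by GC content of the peak (horizontal axes, %); bars are exact Poisson intervals. GATA sites reach 1.255 per kb in lowered pairs under 37% GC, and androgen response elements stay at or below 0.0148 per kb in lowered and steady pairs in all 3 GC classes.

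TCF7L2, the Wnt pathway factor that binds DNA with beta-catenin, was seldom found at lowered regions. The 15000 tallest TCF7L2 peaks touched 70 lowered pairs (4.30%, 3.42 to 5.40), none of them at a promoter, against 14.9% of steady and 4.48% of raised pairs. Away from promoters the shares were 4.42%, 9.46% and 3.61%. The gap from steady pairs held at each vehicle height: 4.23% against 7.37% at 30 to 49 tags, 4.72% against 9.67% at 50 to 79 tags, and 4.67% against 13.2% at 80 tags or more. The tallest TCF7L2 peak at a lowered region had 211 tags and lay 540 kb from NYAP2, where H3K27Ac went from 36 to 23 tags. The next were in RAD51B with 201 TCF7L2 tags and in CCDC192 with 195. In RAD51B, a homologous recombination gene, H3K27Ac went from 32 to 20 tags. Peaks in TPRG1 and MSI2 and a second one near NYAP2 had 169 to 177 TCF7L2 tags. The steroid in the serum differed between these libraries.

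Lowered regions lay together. Another lowered pair was found within 50 kb of 27.04% of them (24.9 to 29.3), while this was so for 8.20% of steady and 3.71% of raised pairs away from promoters. The converse held for raised neighbors, which 9.47% of lowered pairs had, against 22.3% of steady and 34.5% of raised pairs away from promoters. Pairs within 50 kb of a lowered pair that were not lowered themselves had a median ratio of 0.931, whereas such pairs around steady pairs away from promoters had 1.04. These neighbors include promoter pairs and were not matched for promoters or GC content. Over all pairs the median ratio was 1.11 at promoters and 0.955 away from them, and 0.847 away from promoters under 35% GC. The 0.931 is therefore no separate sign of lowering around the lowered pairs. With 100 kb as the largest gap, 615 lowered pairs fell into groups and 1012 stood alone. There were 177 groups of 2, 44 of 3, 13 of 4, and 13 of 5 or more.

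The groups were ranked by their number of lowered pairs, and each stretch ran from its first to its last lowered pair. The share of pairs lowered within a stretch is therefore high by construction. The largest group held 9 lowered pairs in 248 kb of chromosome 11, among 14 vehicle peaks. Every one-to-one pair of 30 vehicle tags or more in that stretch was lowered. The group lay in a gene desert, with the start of CNTN5, a contactin gene of neurons, 779 to 1024 kb away. From left to right the vehicle heights were 49, 50, 55, 30, 61, 58, 55, 51 and 69 tags, and the DHT heights were 26, 24, 33, 13, 31, 25, 21, 22 and 35. No DHT height reached the vehicle height of any but the lowest peak, 30 tags. Each pair was chosen on its ratio, so this describes the group and is no separate result. The group on chromosome 10 near NRG3, which encodes a ligand of ERBB4, had 7 lowered pairs of 8, with ratios of 0.517 to 0.628. The group on chromosome 9 near PAPPA, a protease that cleaves IGF-binding proteins, had 7 of 7, with 31 to 102 vehicle tags and 15 to 59 DHT tags. A further 2 groups lay on chromosome 10 with MBL2 or PCDH15 as nearest gene, 104 to 510 kb away, with 6 of 7 and 5 of 9 pairs lowered. The group near CDH9, a cadherin gene, had 6 of 6. In none of the 8 largest groups did a lowered pair touch a TCF7L2 peak, and all of their members mapped uniquely. Over all lowered pairs only 5.04% touched a listed TCF7L2 peak of any height, which is few for groups of this size.

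The group that held PGR, the progesterone receptor gene, had 6 lowered pairs of 7. A peak inside PGR (chr11:100970910-100973039, 24.8 kb from a start of the gene) went from 42 to 15 tags, a ratio of 0.357 with an interval of 0.184 to 0.657. The tallest lowered peak of the group went from 103 to 65 tags. The other 4 had 33 to 47 vehicle tags and 21 to 30 DHT tags, and each of their intervals reached past 1. The group at CCDC14 and MYLK also had 6 of 7, with the deepest ratio of the 8 groups at 0.289. Its vehicle heights were 32 to 68 tags and its DHT heights 13 to 37, and the ranges overlapped only through the vehicle peak of 32. This too goes with the choice on the ratio.

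**Figure D5:**
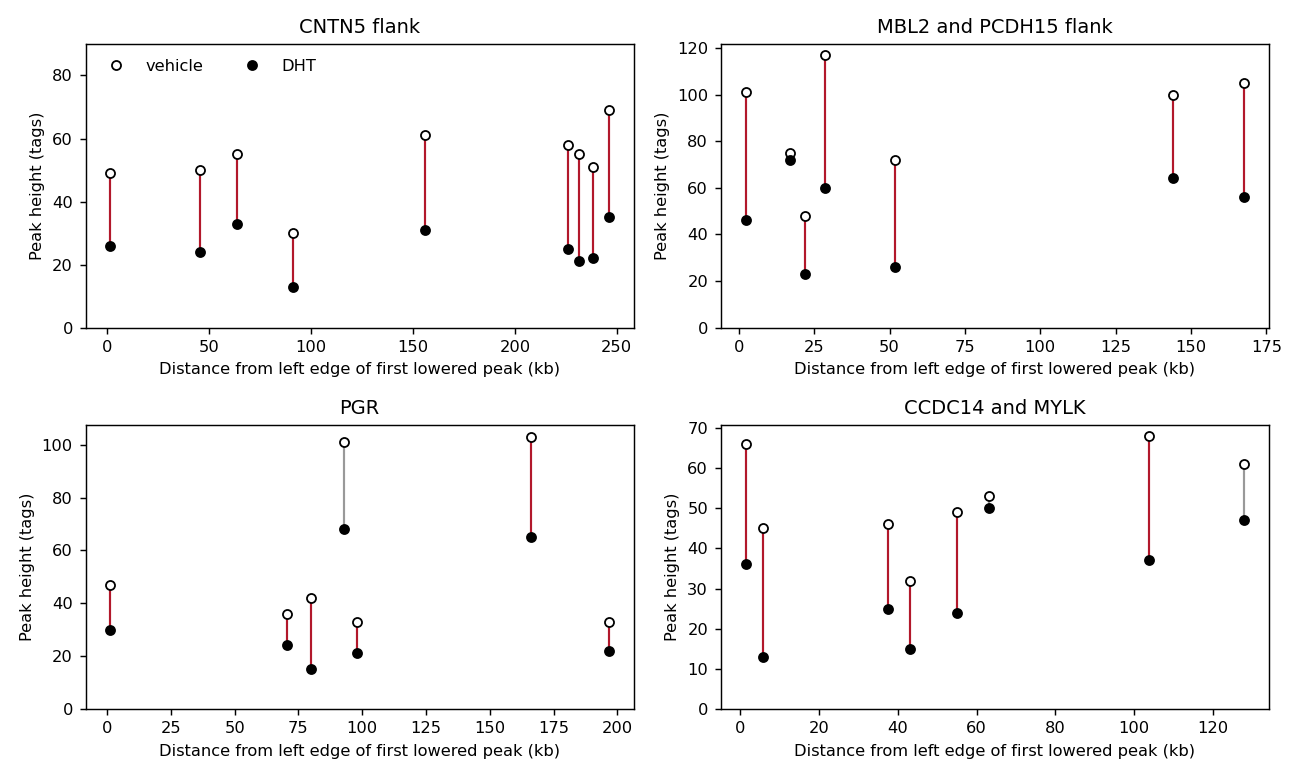
H3K27Ac peak height (vertical axes, tags) with vehicle (open circles) and DHT (filled circles) for the pairs of 30 vehicle tags or more in 4 groups and 50 kb on either side, by distance from the left edge of the first lowered peak (kb). Red lines join lowered pairs and gray lines other pairs; all 9 pairs beside CNTN5 and 6 of 7 within the PGR group are red.

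Gene lists were read by whether a lowered pair lay in the gene or within 50 kb of it. Over all 20136 protein-coding genes, 1399 had one, which is 6.95%. The share of all genes with a raised pair was not counted. Raised pairs were more numerous, 4192 against 1627, so 6.95% is no measure for the raised counts here and below. Among 12 genes commonly given as androgen-repressed, 3 had a lowered pair and 4 had a raised pair, with MET in both counts. Those with a lowered pair were UGT2B10, an enzyme gene of the family that glucuronidates androgens, with a peak of 43 vehicle and 25 DHT tags, MET, the hepatocyte growth factor receptor gene, with 53 and 32, and OPRK1, the kappa opioid receptor gene, with 35 and 19. They made up 11.1% of the 27 pairs near those genes, with an interval of 3.85 to 28.1 that holds the share over all pairs. Away from promoters that was 3 of 20 pairs, or 15.0%, against 11.2% of all such pairs. The study lists genes near risk loci that androgen decreased, from RNA-seq by other studies. RNA is a measure unlike acetylation, and some androgen treatments differed from the one here. Of 12 genes taken from that list, 2 had a lowered pair, TBC1D3 and VSIG10L, and 4 a raised pair. Among 30 androgen-induced genes, 2 had a lowered pair and 21 had a raised pair, again without a share over all genes for the raised count. The 2 were STEAP1 and STEAP2, genes of the same metalloreductase family that share a single peak of 116 vehicle and 73 DHT tags.

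Nuclear receptor and receptor tyrosine kinase genes had lowered pairs at about the rate of all pairs when promoter pairs were counted. Of 44 nuclear receptor genes, 5 had one, and 9 of 109 nearby pairs were lowered (8.26%), 4 of them at PGR. Away from promoters that was 9 of 60 pairs, or 15.0%, against 11.2% of all such pairs. At ESR1, the estrogen receptor alpha gene, 2 of 4 pairs were lowered, with 61 and 36 tags at the deeper of them. HNF4G, NR1H4 and RORA had 1 each. Raised pairs lay near 11 of the 44 genes, with 4 of them at RORA. Of 46 receptor tyrosine kinase genes 8 had a lowered pair, in 8.40% of 131 pairs and in 11.2% of the 98 pairs away from promoters. ERBB4 had a lowered peak of 77 vehicle and 44 DHT tags, 451 kb from a start of the gene. The ephrin receptor genes EPHA3, EPHA5, EPHA6 and EPHA7 had 7 lowered pairs in all, beside 17, 1, 14 and 3 pairs near them. Of the 46 genes 19 had a raised pair, among them ERBB4 with 2 and EPHA6 with 3. Of 56 genes of axon guidance and neuronal adhesion 11 had a lowered pair, among them SLIT2, SLIT3 and LRRC4C, in 9.80% of 153 pairs. The deepest of these lowered pairs was an SLIT3 peak of 33 vehicle and 14 DHT tags. Raised pairs lay near 19 of the 56 genes. Many of these genes are long, so the gene body with its flanks takes in more sequence than for short genes.

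The remaining lists had 0 to 5 genes with a lowered pair. None of 22 AP-1 and immediate early genes had one among 49 pairs, and a count of 0, taken to allow 3, allows a share of up to 6.12%, and none of 11 luminal marker genes had one among 24 pairs, which allows up to 12.5%. Of 20 luminal lineage factor genes, TFAP2C with 38 and 21 tags and MYB with 46 and 23 had one, in 3.23% of 62 pairs. INHBB, an activin subunit gene, had a peak of 56 vehicle and 24 DHT tags, and BMPR1B one of 34 and 21, among 40 genes of the TGF-beta and BMP pathways, where 2.86% of 70 pairs were lowered. Of 26 Wnt target and feedback genes LEF1 and FGF20 had one, in 5.41% of 37 pairs, and of 28 Notch pathway genes JAG1 and MAML3 did, in 3.45% of 87 pairs. Of 29 sterol and fatty acid genes INSIG2 had 2, the second going from 50 to 20 tags, and ACACA had 1, in 3.12% of 96 pairs. Of 54 genes at prostate cancer risk loci 5 had one, with 4.05% of 173 pairs lowered. COMMD10 had 3 of these, the deepest with 46 and 18 tags. PTPRC, a leukocyte marker, had a lowered peak of 47 vehicle and 22 DHT tags 9.36 kb from its start, without a promoter peak in either library, and was the only lowered pair of 12 near the 5 leukocyte markers (8.33%). Of 26 cyclin and CDK genes CCNE2 had lowered pairs, 2 of 55 (3.64%), of 20 neuroendocrine genes CELF3, 1 of 20 pairs, and of 15 housekeeping genes RPLP0, 1 of 38 (2.63%). No basal, stromal or endothelial marker had any. Of the intervals of the shares of these remaining lists, that of the AP-1 and immediate early genes, up to 7.27%, ended below the 8.05% over all pairs, and the others held it. Only 21 of those 49 AP-1 and immediate early pairs lay away from promoters. Since 0.693% of promoter pairs and 11.2% of other pairs were lowered, the 8.05% is not a like measure for that list. The same holds for other lists rich in promoter pairs, such as the housekeeping genes, with 12 of 38 pairs away from promoters.

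Lowering was uneven over chromosomes. It was most frequent on chromosome Y, with 17 of 88 pairs or 19.3%, though 11 of those 17 had no piece that mapped uniquely. Chromosomes 8, 4 and 5 followed with 11.5%, 11.1% and 10.7%. The lowest shares were 2.13% on chromosome 19, 2.62% on 16, 3.17% on 17 and 3.56% on 22, the 4 chromosomes whose pairs had the highest median GC contents, from 49.2% to 53.2%. Tall pairs were lowered less often, with 10.1% at 30 to 49 vehicle tags, 7.22% at 50 to 79 and 4.19% at 80 or more, and the same ratio takes a larger difference in tags at greater height.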

How the data were processed

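ChIP-seq of H3K27Ac (vehicle and DHT) and TCF7L2 was done in LNCaP cells, with 1 library per group, and an input library was not analysed here. The deposited lists gave each peak's position on hg19 and its height as signal, a number of tags with no scaling stated. Per the study's methods the authors aligned H3K27Ac reads with Bowtie 2 and TCF7L2 reads with ELAND and called peaks per library with Sole-search. The submitters' processing notes also name BWA and CASAVA 1.8.2.

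Peaks were paired with Python 3.11.15 and pandas 2.3.3. Genes, promoters and nearest starts came from GENCODE release 44 lifted to GRCh37, the sequence equal to hg19, and 477 of 479 listed symbols matched, 4 of them through older symbols. Sites were counted on both strands of whole vehicle peaks. A region was unique where a 1000-base piece mapped with a quality of 30 or more in minimap2 2.31-r1302. Shares carry Wilson intervals, heights and densities exact Poisson intervals, and ratios exact Clopper-Pearson intervals (scipy 1.17.1), at 95% and for counting error only. No hypothesis test was possible with 1 library per condition. Overlaps, the rule and site counts were tested on simulated data.

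Members and lists were chosen with earlier results of these data known. Genes named are those nearest the 12 lowest ratios, the 12 tallest vehicle peaks, the 12 largest losses, the 8 largest groups, the 6 tallest TCF7L2 peaks and 3 pairs on either side of the limit, and up to 6 genes per list. Of these, 1 region and 1 listed gene are not reported here. Promoter genes and those in the printed sequences were chosen after their values were seen. Alternatives covered the limits, overlap, scaling, windows and distances.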

Additional observations from a re-analysis of the deposited data

How the results depend on the processing

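No paired analysis was possible because each group was 1 library, and no replicate could be left out. The number of lowered pairs (1627) was 842 with a ratio limit of 0.6, 2945 with 0.75, 2714 with a lowest vehicle height of 20 tags and 635 with 50. It was 2335, with all 1627 included, when DHT heights were divided by 1.07, the median ratio of pairs with a geometric mean of 30 tags or more, and 1877 when the upper interval limit of the ratio had to lie below the median ratio of all pairs. An adjustment for GC content, added after seeing the data, gave 998 pairs, with 4.11% at promoters, 0.00519 androgen response elements, 0.970 GATA and 0.0861 HOXB13 sites per kb, a median GC content of 39.6%, a CpG ratio of 0.190, and 26.1% with another lowered pair within 100 kb. That last share was 37.8% as reported, 43.8% with scaled heights, 29.0% with 50 vehicle tags or more, 27.04% for a distance of 50 kb and 55.1% for 250 kb. A promoter window of 2500 bp before to 500 bp after the start gave 3.87%. In the middle 1000 bp of the stretch shared by both peaks, densities per kb were 0.00430 for androgen response elements, 0.403 for FOXA, 1.246 for GATA and 0.131 for HOXB13. With 50 vehicle tags or more the CpG ratio was 0.187. Gene list entries with a lowered pair numbered 50 at 50 kb, 33 at 10 kb and 59 at 100 kb. Leaving out the regions with no unique piece, also added after seeing the data, left 1570 pairs and moved none of these values beyond its counting interval, and the overlap of at least 50% of the shorter peak gave 1630 pairs. Heights of 30 to 145 tags limit each single ratio: for 633 lowered pairs the interval reached 1 or more.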

Other observations

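The 3 vehicle peaks of 30 tags or more that met no DHT peak lay nearest FUNDC1, with 36 tags, PRR23C, with 33, and PCDH7, with 31. They are not among the lowered pairs, since the rule needs a peak in both lists. At the other end, 57 lowered pairs (3.50%) had no uniquely mapping piece, against 2.17% of steady and 0.549% of raised pairs.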
